A study of Mus musculus with 43 samples.

Results

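The genes described here encode the WNT, FGF and BMP/GDF ligands of the mouse, measured in full-grown oocytes with disabled Polycomb complexes and in morulae that lacked the maternal share of such proteins. They were chosen by symbol, as every WNT, FGF, BMP and GDF gene with a number in its name, whether expressed or not. Bmp15 and Gdf9, the oocyte's own hallmark ligands, were left out by that rule. It gave 60 genes, 19 WNT, 22 FGF and 19 BMP or GDF, of 35815 genes in the table with the PRC1 mutants and 35842 in each of the other tables. By symbol it also took Bmp1, a procollagen proteinase, and Fgf11 to Fgf14, whose products stay inside the cell.

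Secreted ligands of these families carry signals between neighbouring cells. WNT proteins bind Frizzled receptors and LRP co-receptors and stabilise beta-catenin. FGFs bind receptor tyrosine kinases and switch on the ERK cascade, and BMPs and GDFs bind serine/threonine kinase receptors that phosphorylate SMAD proteins. In the ovary, ligands made by the oocyte act on the granulosa cells around it. Many genes of these families are developmental regulators with CpG-rich promoters of the kind that Polycomb complexes occupy in embryonic stem cells.

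The study held 43 libraries of polyadenylated RNA. PRC1-CD oocytes (2 libraries) carried a catalytically dead Polycomb repressive complex 1, the complex that ubiquitinates histone H2A, and were set against PRC1-WT oocytes (2 libraries), with 10 pooled oocytes freed of the zona pellucida in each library. TKO oocytes (3 libraries) lacked Pcgf1, Pcgf6 and Mll2, DKO oocytes (3 libraries) lacked Pcgf1 and Pcgf6, and WT oocytes (3 libraries) were labelled wild type. PCGF1 and PCGF6 are subunits of variant PRC1 complexes, and MLL2, the product of Kmt2b, methylates histone H3 at lysine 4. The matTKO, matDKO and WT morulae (10 libraries each) differed in the genotype of the mother, so the embryos lacked the maternal supply of these proteins. The comparisons ask how the ligand genes respond when the repressing complexes are lost and when MLL2 is lost as well. The Cre driver, the animals' ages and the number of oocytes or embryos in the knockout libraries are not given in the sources used here, nor whether replicates came from separate animals, and the spread that the p-values rest on is that between libraries, which may be technical. The second PRC1-CD library has embryo as its tissue label, whereas its title and stage name an oocyte.

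Values are RPKM in oocytes and TPM in morulae, both scaled to transcript length, and the depth behind them is unknown. Pcgf1 measured 10.69 to 13.73 RPKM in TKO and 10.62 to 13.35 RPKM in DKO oocytes, against 1077 to 1153 RPKM in WT oocytes. Pcgf6 kept more signal, at 61.94 to 81.59 RPKM in TKO and 55.05 to 60.26 RPKM in DKO oocytes, against 147.66 to 158.75 RPKM in WT oocytes. Kmt2b measured 1.04 to 1.31 RPKM in TKO and 3.58 to 4.21 RPKM in DKO oocytes, against 4.43 to 5.16 RPKM in WT oocytes. A catalytically dead complex keeps its transcripts, so levels cannot check the PRC1-CD label. Ring1, another PRC1 gene, measured 0.02 to 0.06 RPKM in WT, 0.07 to 0.17 RPKM in DKO and 0.09 to 0.12 RPKM in TKO oocytes. It measured 3.15 to 3.24 RPKM in PRC1-WT and 2.42 to 3.76 RPKM in PRC1-CD oocytes, which were normalised separately. The cause of this difference between the sets was not tested. In morulae, where the embryo's own genes can be active, Pcgf1 ranged over 6.95 to 26.92 TPM in matTKO and 5.23 to 15.62 TPM in matDKO, against 17.25 to 33.16 TPM in WT libraries. Pcgf6 had medians of 17.12 TPM in matTKO, 20.26 TPM in matDKO and 22.18 TPM in WT morulae, and Kmt2b of 7.53, 10.2 and 5.79 TPM in the same order, with overlapping ranges. The 12 oocyte markers summed to between 12385 and 19692 RPKM in all oocyte libraries, a sum that the most abundant of them dominate. In the tests described below, 4 of the 12 were lower in TKO than in WT oocytes (Oosp1, Kit, Figla and Bmp15). Another 3 calls were lower in DKO than in WT oocytes (Gdf9, Kit and Ooep), and 0 were higher in either. Of all genes tested, 20.1% were lower in TKO and 11.3% in DKO oocytes. In PRC1-CD oocytes 0 of the 12 were called. Of the morula libraries, matTKO replicates 8 and 9 and matDKO replicates 7, 8 and 9 stood apart, with a mean correlation to the other morula libraries below 0.92.

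In wild-type oocytes few of the ligand genes were on. Of the 60, 9 had a mean of at least 1 RPKM in PRC1-WT oocytes and 7 in WT oocytes, and 8 and 10 of them were listed at 0 in every library of their tables. Fgf8, which mouse oocytes secrete to drive glycolysis in cumulus cells, stood highest, at 141.13 and 137.75 RPKM in PRC1-WT oocytes and at 98.02, 110.28 and 107.01 RPKM in WT oocytes. Next came Bmp5, at 58.68 and 43.43 RPKM in PRC1-WT oocytes and 45.48, 48.50 and 45.89 RPKM in WT oocytes. Bmp6, an oocyte ligand for granulosa cells, followed at 25.37 and 23.79 RPKM in PRC1-WT oocytes and 22.92, 23.67 and 23.69 RPKM in WT oocytes. The libraries of these 3 genes did not overlap with each other in WT oocytes, so their order held in each library. Fgf9, Fgf7, Fgf10 and Fgf1 made up the rest of the genes above 1 RPKM in both sets, at group means between 1.74 and 6.63 RPKM. No WNT gene reached a mean of 1 RPKM in either wild-type group, and Wnt7a came closest, at 0.95 ± 0.071 RPKM (SD, n = 2) in PRC1-WT oocytes and 0.953 ± 0.344 RPKM (SD, n = 3) in WT oocytes. The left-out Bmp15 and Gdf9 averaged 721 ± 49.6 and 2227 ± 91.6 RPKM in WT oocytes (SD, n = 3).

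**Figure D1:**
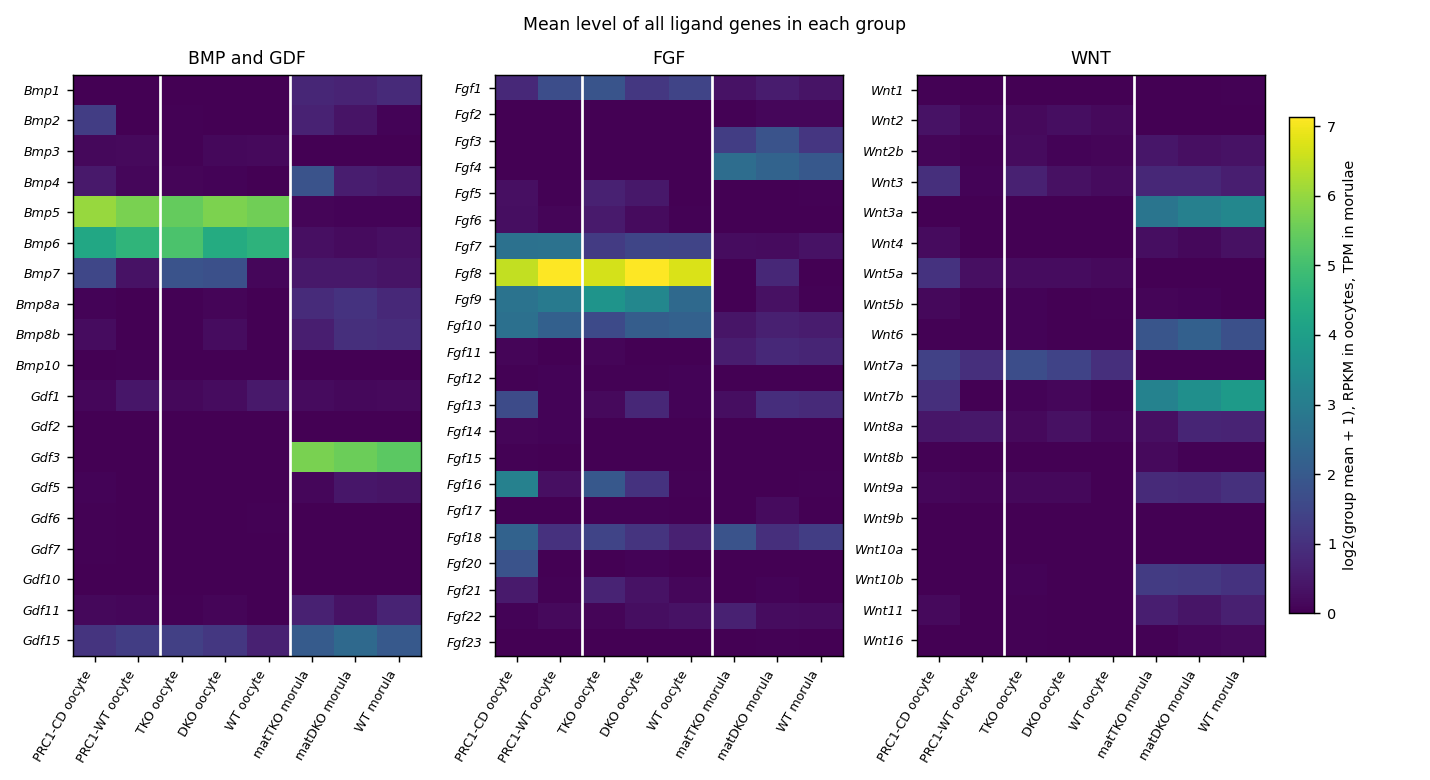
Mean level of each of the 60 ligand genes in the 8 groups, as log2(group mean + 1), of RPKM in oocytes and TPM in morulae, with brighter cells for higher levels. Fgf8, Bmp5 and Bmp6 are bright in oocytes and dark in morulae, and Gdf3, Wnt7b and Wnt3a the other way round; white lines part the 3 tables, which were normalised separately.

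Promoter sequences (RefSeq, build GRCm38.p6, 250 bases before to 50 after the start) were at hand for 43 of the 60 genes. A gene with several listed starts was counted by the start richest in CpG. The median promoter of the 43 held 24 CpG sites, against 8 over the 27025 genes of the sequence table, and 55.8% of the 43 held at least 20, against 28.8% of all genes. Of the 13 ligand genes that were higher in a mutant oocyte group than in its wild type, described below, 6 had a promoter entry, with a median of 33.5 CpG sites and a range of 7 to 47. Of the 7 genes at a mean of at least 1 RPKM in both wild-type oocyte groups, 5 had an entry, with a median of 11 and a range of 4 to 27. These sets share Bmp6, Fgf9, Fgf1 and Fgf8, of which only Bmp6 and Fgf9 had an entry. They were chosen on levels or calls, so the medians are a description without a test. The motif CACGTG, an E-box read by the MGA and MAX proteins of the PCGF6 complex, was found on either strand in 14% of the 43 (6 genes) and in 7.39% of all promoters. The share for GCGGGA, the core read by E2F6, was 32.6% (14 genes) and 21.1%. Both motifs contain a CpG, which the 43 promoters held more often, and the part of CpG content in these shares was not tested. Matches to the 2 motifs can share no more than an end base, and a match is no evidence of binding. The promoters of 4 genes are shown as examples from the CpG-rich and the CpG-poor end of the range, with each CpG in capitals. They do not stand for their sets: Gdf15 and Fgf9, higher in knockout oocytes, had 7 and 12 CpG sites, and Bmp6, on in wild-type oocytes and higher in TKO, had 27. Fgf18 (chr11:33147351-33147650, minus strand, 47 CpG sites) and Wnt7a (chr6:91411304-91411603, minus strand, 42 sites) were higher in mutant oocytes, and Bmp5 (chr9:75775115-75775414, plus strand, 4 sites) and Fgf10 (chr13:118714449-118714748, plus strand, 10 sites) were at a mean above 1 RPKM in both wild-type groups.
Fgf18: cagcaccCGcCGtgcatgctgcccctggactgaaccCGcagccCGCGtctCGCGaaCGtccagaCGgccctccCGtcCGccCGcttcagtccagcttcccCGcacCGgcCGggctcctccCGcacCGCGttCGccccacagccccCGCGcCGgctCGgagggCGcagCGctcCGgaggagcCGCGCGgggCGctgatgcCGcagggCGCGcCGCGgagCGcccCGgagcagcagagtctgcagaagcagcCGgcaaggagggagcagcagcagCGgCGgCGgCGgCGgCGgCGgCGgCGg
Wnt7a: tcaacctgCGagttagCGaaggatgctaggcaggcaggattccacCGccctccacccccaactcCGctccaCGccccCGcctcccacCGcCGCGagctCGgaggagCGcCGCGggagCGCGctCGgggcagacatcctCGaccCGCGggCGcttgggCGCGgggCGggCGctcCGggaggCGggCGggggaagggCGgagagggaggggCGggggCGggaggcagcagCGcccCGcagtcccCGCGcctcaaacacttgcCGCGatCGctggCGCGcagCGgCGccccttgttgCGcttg
Bmp5: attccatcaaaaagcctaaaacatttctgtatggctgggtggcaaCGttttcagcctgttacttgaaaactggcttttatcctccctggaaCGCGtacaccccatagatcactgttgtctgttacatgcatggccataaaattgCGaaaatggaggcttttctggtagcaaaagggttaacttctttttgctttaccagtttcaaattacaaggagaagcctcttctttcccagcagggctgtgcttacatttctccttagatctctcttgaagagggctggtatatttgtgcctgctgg
Fgf10: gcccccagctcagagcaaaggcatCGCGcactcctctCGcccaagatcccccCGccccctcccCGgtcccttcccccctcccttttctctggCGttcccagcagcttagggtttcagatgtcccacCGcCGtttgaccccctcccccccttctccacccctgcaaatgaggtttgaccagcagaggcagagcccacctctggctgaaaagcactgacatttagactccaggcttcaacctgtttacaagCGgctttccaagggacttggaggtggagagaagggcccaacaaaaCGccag

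In PRC1-CD oocytes, some ligand genes that were silent or nearly so in PRC1-WT oocytes were on. Most were not, as 44 of the 60 stayed below a mean of 1 RPKM in both groups. Of the 16 ligand genes that reached a mean of 1 RPKM in either group and were therefore tested, 7 were higher (Bmp2, Bmp7, Fgf13, Fgf16, Fgf18, Fgf20 and Wnt5a), 2 were lower (Fgf1 and Fgf8) and 7 did not pass (limma, Benjamini-Hochberg adjusted p under 0.05 over all genes). Of all 13376 genes tested, 17.3% were higher and 5.61% lower. The median log2 change was 0.43 over the 16 ligand genes and 0.04 over all genes. A silent gene enters the test only if the mutant group reaches 1 RPKM, as 7 of the 16 did, which tilts these counts and the median towards higher values. Without that filter 52 ligand genes could be tested, of which 10 were higher and 1 lower, against 7.74% and 1.18% of all genes in that fit. It added Fgf5, Wnt4 and Wnt7b to the higher genes, with log2 changes of 0.25, 0.20 and 0.94, and dropped Fgf1. Fgf5 and Wnt4 were near 0, at 0.18 and 0.25 RPKM and at 0.14 and 0.16 RPKM in PRC1-CD oocytes, against at most 0.02 RPKM in PRC1-WT oocytes. Of the 52, both PRC1-CD libraries lay above both PRC1-WT libraries for 24 genes and below both for 5, many of them at levels near 0, where the same held for 34.6% and 17.9% of all 26314 genes above 0 in some library.

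Fgf16, a paracrine FGF known from heart development (chrX:105764477-105776532), changed most. It measured 9.57 and 5.99 RPKM in PRC1-CD oocytes, against 0.12 and 0.31 RPKM in PRC1-WT oocytes. The PRC1-CD libraries differed from each other, yet both stood far above PRC1-WT, with a log2 change of RPKM + 1 of 2.83 ± 0.24 (SE; limma adjusted p = 0.000405). Fgf20 (chr8:40279166-40286953), a close relative of Fgf16 and Fgf9 that acts in the inner ear, measured 2.44 and 2.65 RPKM in PRC1-CD oocytes, against 0.03 and 0.00 RPKM in PRC1-WT oocytes (log2 change 1.80 ± 0.16, limma adjusted p = 0.000489). Micu3, which overlaps Fgf20 on the other strand, averaged 0.84 RPKM in PRC1-CD and 1.28 RPKM in PRC1-WT oocytes and was not called (limma adjusted p = 0.234). The chemistry does not mark the strand, so reads of overlapping genes cannot be told apart. Fgf13, an intracellular FGF that binds sodium channels, measured 2.17 and 2.06 RPKM in PRC1-CD oocytes, against 0.02 and 0.08 RPKM in PRC1-WT oocytes (log2 change 1.57 ± 0.16, limma adjusted p = 0.000798). Thus 3 FGF genes with hardly any signal in the wild type had clear levels in the mutant. Fgf18, which acts in skeletal growth, measured 4.11 and 3.3 RPKM in PRC1-CD oocytes, against 1.11 and 0.94 RPKM in PRC1-WT oocytes (log2 change 1.21 ± 0.18, limma adjusted p = 0.00373; 0.0526 without the second PRC1-WT library).

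Of the BMP genes, Bmp2 (chr2:133552159-133562896), a bone and heart morphogen, measured 1.6 and 1.27 RPKM in PRC1-CD oocytes and 0.00 and 0.01 RPKM in PRC1-WT oocytes (log2 change 1.27 ± 0.16, limma adjusted p = 0.00184). Bmp7 (chr2:172868012-172940321), needed for kidney and eye development, measured 1.80 and 1.89 RPKM in PRC1-CD oocytes and 0.18 and 0.36 RPKM in PRC1-WT oocytes (log2 change 1.17 ± 0.17, limma adjusted p = 0.00298). For both genes the groups were well apart. Bmp5 and Bmp6, the BMP genes of this set that stood highest in wild-type oocytes, behaved otherwise. Bmp5 measured 66.03 and 63.84 RPKM in PRC1-CD and 58.68 and 43.43 RPKM in PRC1-WT oocytes, and Bmp6 17.53 and 19.11 RPKM against 25.37 and 23.79 RPKM. Neither was called (limma adjusted p = 0.215 and 0.115), although their groups did not overlap, and with median-ratio scaling of the libraries Bmp6 was lower (log2 change -0.52, limma adjusted p = 0.0455). Gdf15, a stress-induced ligand of the receptor GFRAL, averaged 1.12 ± 0.177 RPKM in PRC1-CD oocytes and 1.44 ± 0.806 RPKM in PRC1-WT oocytes (SD, n = 2 each), with overlapping libraries.

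The only WNT gene called was Wnt5a, which mostly signals without beta-catenin, at 1.07 and 1.08 RPKM in PRC1-CD oocytes and 0.27 and 0.16 RPKM in PRC1-WT oocytes (log2 change 0.77 ± 0.16, limma adjusted p = 0.0126). This call was lost with quantile normalisation (log2 change 0.16, limma adjusted p = 0.508) and without either PRC1-WT library (limma adjusted p = 0.0786 and 0.0957). Wnt7a, which patterns the limb and the female reproductive tract, measured 1.47 and 1.74 RPKM in PRC1-CD oocytes and 1 and 0.90 RPKM in PRC1-WT oocytes without passing the test (limma adjusted p = 0.121). Wnt7b measured 1.18 and 0.72 RPKM in PRC1-CD oocytes and 0.00 and 0.02 RPKM in PRC1-WT oocytes and was called only in the fit without the filter (log2 change 0.94 ± 0.14, limma adjusted p = 0.0333).

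The genes that were lower in PRC1-CD oocytes were both FGFs of the normal oocyte. Fgf8 measured 92.25 and 85.11 RPKM in PRC1-CD oocytes, against 141.13 and 137.75 RPKM in PRC1-WT oocytes (log2 change -0.65 ± 0.15, limma adjusted p = 0.0203). Fgf1, which binds all FGF receptors, measured 0.88 and 0.68 RPKM in PRC1-CD oocytes, against 2.66 and 1.73 RPKM in PRC1-WT oocytes (log2 change -0.83 ± 0.20, limma adjusted p = 0.025). Groups did not overlap for either gene, but both calls were lost when any single library was left out, with adjusted p up to 0.126 for Fgf8 and 0.17 for Fgf1. Fgf7, Fgf9 and Fgf10, growth factors for epithelia and gonads, were not called, at means of 5.36, 5.62 and 5.19 RPKM in PRC1-CD oocytes and 5.39, 6.63 and 3.55 RPKM in PRC1-WT oocytes.

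Markers of follicle cells moved in the same comparison. The 18 granulosa and cumulus markers summed to 68.2 to 76.0 RPKM in PRC1-CD oocytes and to 34.3 to 37.7 RPKM in PRC1-WT oocytes, and 5 of the 7 tested were higher, with Fshr, the FSH receptor, at 12.02 to 18.57 RPKM in PRC1-CD oocytes and 0.50 to 0.60 RPKM in PRC1-WT oocytes. The others called higher were Cyp11a1, Inha, Nr5a2 and Ptgs2, where 17.3% of all genes tested were higher. Foxl2, Amh, Amhr2, Ptx3 and Tnfaip6, also on the list, were at 0.10 RPKM or less in all 4 libraries. Stromal and blood markers summed to 12.9 to 13.7 RPKM in PRC1-CD oocytes and 9.77 to 11.4 RPKM in PRC1-WT oocytes. The part of such cells in the ligand levels was not tested.

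**Figure D2:**
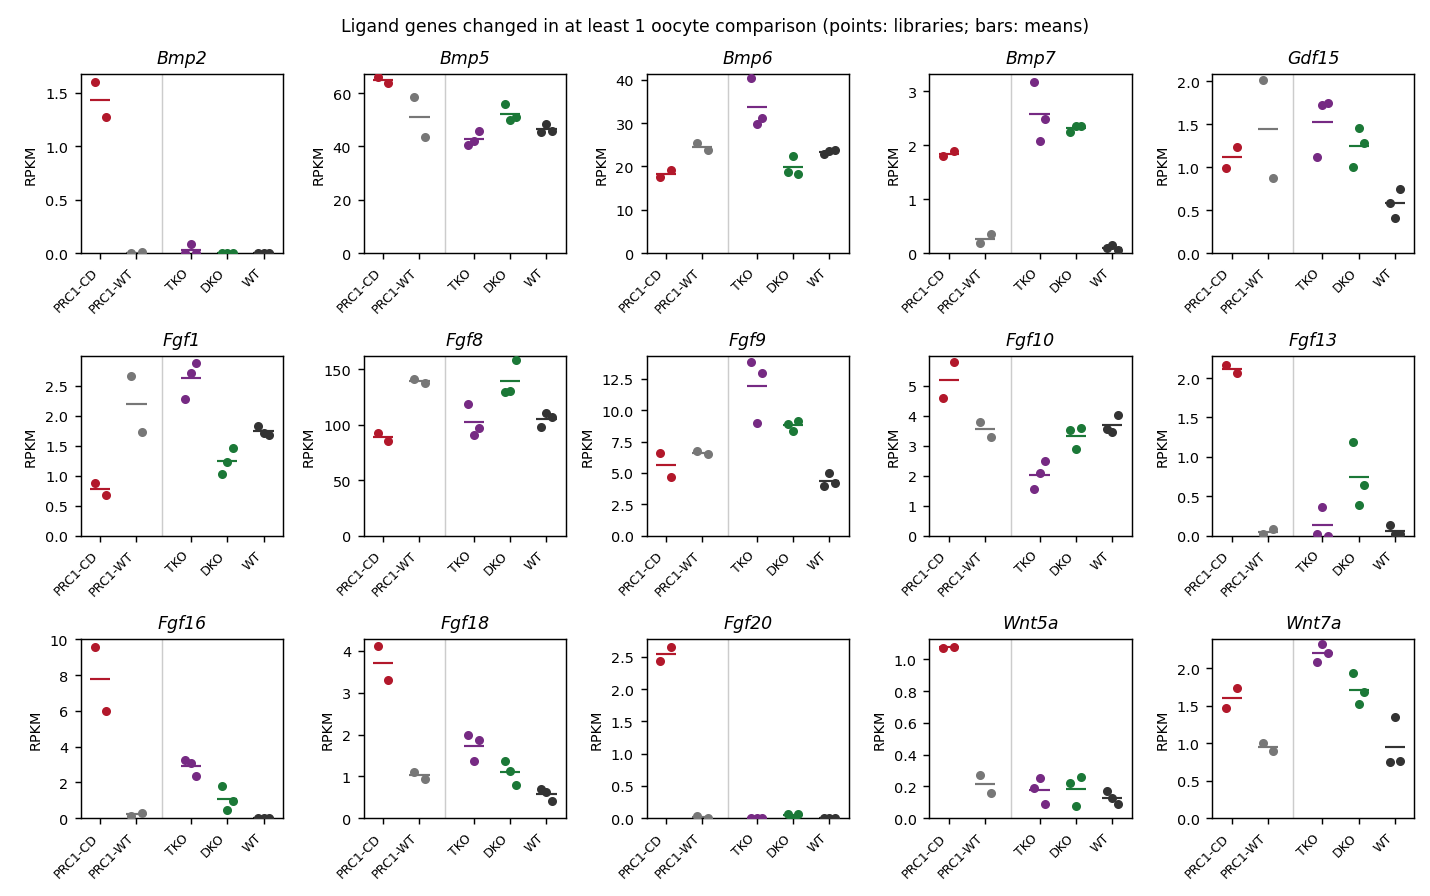
Level in RPKM of the 15 ligand genes called in at least 1 oocyte comparison, with a point for each library and a bar at the group mean, each panel on its own axis from 0; a grey line parts the 2 tables. Every point of Bmp7, Fgf16, Fgf18 and Wnt7a in the 3 mutant groups lies above its wild type, though Fgf18 was not called in DKO and Wnt7a not in PRC1-CD oocytes. Bmp2, Fgf20 and Wnt5a lie above it in PRC1-CD oocytes and stay below 0.3 RPKM in every TKO, DKO and WT library.

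In the knockout oocytes the same question was put to the loss of PCGF1 and PCGF6, with and without MLL2, over 12 ligand genes that reached a mean of 1 RPKM in 1 of the 3 groups. In TKO against WT oocytes 8 were higher (Bmp6, Bmp7, Fgf1, Fgf9, Fgf16, Fgf18, Gdf15 and Wnt7a) and 1 was lower (Fgf10), where 31.2% of all 12873 genes were higher and 20.1% lower. In DKO against WT oocytes 6 were higher (Bmp7, Fgf8, Fgf9, Fgf16, Gdf15 and Wnt7a) and 0 lower, where 17.5% of all genes were higher and 11.3% lower; limma gave 8 of the 12, and 40.4% of all genes, an unadjusted p under 0.05 in either direction. With quantile normalisation the DKO split was 4 higher and 1 lower. The median log2 change over the 12 was 0.59 in TKO and 0.40 in DKO oocytes, against 0.09 and 0.03 over all genes, but 5 of the 12 (Bmp7, Fgf16, Fgf18, Gdf15 and Wnt7a) averaged under 1 RPKM in WT oocytes and were tested only because a mutant group was higher, so the counts and medians lean upward by construction. Both comparisons use the same 3 WT libraries. Without the filter, 50 ligand genes could be tested, of which 10 were higher and 3 lower in TKO oocytes (15.4% and 9.5% of all genes in that fit) and 6 higher and 0 lower in DKO oocytes (8.87% and 4.57%). It added Fgf6 and Fgf21 to the higher and Bmp3 and Gdf1 to the lower genes in TKO oocytes, with log2 changes of 0.47, 0.56, -0.12 and -0.34. In DKO oocytes it added Bmp8b, Fgf13 and Wnt7b (0.24, 0.70 and 0.10), and dropped Fgf8, Gdf15 and Wnt7a. The genes added in TKO or DKO oocytes averaged under 1 RPKM in all 3 groups. Bmp8b measured 0.20, 0.17 and 0.18 RPKM and Wnt7b 0.07, 0.08 and 0.10 RPKM in DKO oocytes, against at most 0.03 RPKM in WT oocytes. Of the 50, TKO libraries lay above every WT library for 12 genes and below for 3, where 23% and 14.1% of all genes above 0 did so, and DKO libraries above for 14 and below for 3, where 19.6% and 12.5% did so. These shares of the ligand genes lie near those of all genes or below them, apart from the DKO genes above WT.

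Bmp7 was off in WT oocytes and on in both knockouts. It measured 3.17, 2.07 and 2.49 RPKM in TKO oocytes and 2.24, 2.35 and 2.36 RPKM in DKO oocytes, against 0.09, 0.16 and 0.05 RPKM in WT oocytes. All 6 knockout libraries stood above all WT libraries, with log2 changes of 1.69 ± 0.13 in TKO (limma adjusted p = 6.79e-06) and 1.59 ± 0.13 in DKO oocytes (limma adjusted p = 2.27e-05). TKO and DKO libraries overlapped, and their difference of 0.10 ± 0.13 on the log2 scale was not called (limma adjusted p = 0.554). Both Bmp7 calls were kept under all 14 alternatives tried, with log2 changes of at least 1.42.

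Fgf16 was likewise off in WT oocytes but differed between the knockouts. It measured 3.27, 3.10 and 2.35 RPKM in TKO oocytes and 1.78, 0.47 and 0.96 RPKM in DKO oocytes, against 0.03, 0.03 and 0.04 RPKM in WT oocytes. The 3 groups did not overlap, and the log2 change was 1.91 ± 0.21 in TKO (limma adjusted p = 5.53e-05), 0.95 ± 0.21 in DKO (limma adjusted p = 0.00685) and 0.96 ± 0.21 between TKO and DKO (limma adjusted p = 0.00371). Fgf9, which directs testis development and is close to Fgf16 and Fgf20 in sequence, was already on in WT oocytes. It measured 13.83, 9.02 and 13.00 RPKM in TKO oocytes and 8.88, 8.35 and 9.17 RPKM in DKO oocytes, against 3.99, 4.96 and 4.19 RPKM in WT oocytes. Every knockout library lay above every WT library (log2 change 1.25 ± 0.15, limma adjusted p = 9.16e-05, in TKO; 0.87 ± 0.15, limma adjusted p = 0.0018, in DKO), while the TKO to DKO difference of 0.38 was not called (limma adjusted p = 0.0523; 0.00251 without TKO replicate 2).

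Wnt7a was the only WNT gene that reached the filter in these oocytes. It measured 2.08, 2.32 and 2.20 RPKM in TKO oocytes and 1.94, 1.53 and 1.68 RPKM in DKO oocytes, against 0.75, 1.35 and 0.76 RPKM in WT oocytes. No library of either knockout fell into the WT range (log2 change 0.73 ± 0.14, limma adjusted p = 0.00172, in TKO; 0.49 ± 0.14, limma adjusted p = 0.0244, in DKO). Gdf15 measured 1.12, 1.72 and 1.75 RPKM in TKO oocytes and 1, 1.46 and 1.28 RPKM in DKO oocytes, against 0.58, 0.41 and 0.75 RPKM in WT oocytes (log2 change 0.67 ± 0.15, limma adjusted p = 0.00378, in TKO; 0.51 ± 0.15, limma adjusted p = 0.0274, in DKO). The DKO calls of both genes were each lost under 6 of 14 alternatives, with adjusted p up to 0.0976 for Wnt7a and 0.146 for Gdf15. Fgf18 measured 1.98, 1.37 and 1.86 RPKM in TKO oocytes and 1.37, 1.13 and 0.80 RPKM in DKO oocytes, against 0.71, 0.63 and 0.42 RPKM in WT oocytes. All mutant libraries lay above WT, but only the TKO change passed (0.78 ± 0.15, limma adjusted p = 0.00159; 0.40 ± 0.15, limma adjusted p = 0.0674, in DKO), and the difference between the knockouts was 0.38 (limma adjusted p = 0.0523).

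TKO and DKO oocytes, which differ by the loss of MLL2, were compared directly. Bmp6, Fgf1 and Fgf16 were higher in TKO than in DKO oocytes and Bmp5, Fgf8 and Fgf10 lower. These 3 higher and 3 lower of 12 are shares near those of all genes, of which 26.8% were higher and 21.8% lower; the median log2 change was 0.20 over the 12 and 0.04 over all genes. This comparison shares its libraries with those against WT. Without the filter 4 of 50 were higher and 6 lower, against 12.3% and 10.9% of all genes, with Wnt2b (0.14), Bmp8b (-0.21), Bmp3 (-0.11) and Fgf13 (-0.61) added. The added genes averaged under the filter's 1 RPKM in every group. Bmp6 measured 40.28, 29.82 and 31.10 RPKM in TKO oocytes and 18.61, 22.43 and 18.35 RPKM in DKO oocytes, against 22.92, 23.67 and 23.69 RPKM in WT oocytes. TKO libraries lay above all others and DKO libraries below WT, with log2 changes of 0.73 ± 0.12 for TKO against DKO (limma adjusted p = 0.000759), 0.50 ± 0.12 for TKO against WT (limma adjusted p = 0.00601) and -0.24 ± 0.12 for DKO against WT, which was not called (limma adjusted p = 0.161). Fgf1 had the same order, at 2.28, 2.71 and 2.88 RPKM in TKO oocytes and 1.02, 1.23 and 1.46 RPKM in DKO oocytes, against 1.82, 1.71 and 1.68 RPKM in WT oocytes. Its log2 change was 0.70 ± 0.12 for TKO against DKO (limma adjusted p = 0.001) and 0.40 ± 0.12 for TKO against WT (limma adjusted p = 0.0169), and the call against WT was lost under 3 of 14 alternatives.

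Arhgap26 and Txndc5, which overlap Fgf1 and Bmp6 on the other strand, averaged 5.23 ± 0.719 and 73.3 ± 10.2 RPKM in TKO oocytes and 4.32 ± 0.243 and 60.8 ± 3.11 RPKM in WT oocytes (SD, n = 3 each), and neither was called (limma adjusted p = 0.112 and 0.0742). Fgf8 measured 118.39, 90.84 and 96.60 RPKM in TKO oocytes and 128.92, 130.60 and 158.03 RPKM in DKO oocytes, against 98.02, 110.28 and 107.01 RPKM in WT oocytes. The DKO libraries were the highest, at 0.40 ± 0.11 above WT on the log2 scale (limma adjusted p = 0.0227; lost under 4 of 14 alternatives), TKO lay below DKO (log2 change -0.45 ± 0.11, limma adjusted p = 0.00752), and TKO and WT overlapped. In the separately normalised PRC1-CD set the log2 change of Fgf8 was -0.65, and the difference between the sets was not tested. Fgf10, the ligand of limb and lung budding, measured 1.55, 2.08 and 2.48 RPKM in TKO oocytes and 3.53, 2.88 and 3.57 RPKM in DKO oocytes, against 3.55, 3.46 and 4.01 RPKM in WT oocytes. TKO stood below both other groups (-0.63 ± 0.14, limma adjusted p = 0.00344, against WT; -0.52 ± 0.14, limma adjusted p = 0.0102, against DKO), and DKO overlapped with WT.

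Bmp5 measured 40.61, 41.89 and 45.85 RPKM in TKO oocytes and 55.99, 49.88 and 50.98 RPKM in DKO oocytes, against 45.48, 48.50 and 45.89 RPKM in WT oocytes. It was lower in TKO than in DKO (-0.28 ± 0.07, limma adjusted p = 0.0101) and not called against WT in either (limma adjusted p = 0.191 and 0.132), although median-ratio scaling made it lower in TKO than in WT (log2 change -0.23, limma adjusted p = 0.024). Fgf7, a growth factor for epithelial cells, was uneven, at 0.05, 4.07 and 0.01 RPKM in TKO oocytes and 1.74, 1.88 and 1.86 RPKM in DKO oocytes, against 0.10, 2.56 and 2.61 RPKM in WT oocytes. It was near 0 in 2 TKO libraries and in 1 WT library and was not called in any comparison; without TKO replicate 2 it was lower than WT (log2 change -1.23, limma adjusted p = 0.0388). Fam227b, on the other strand across Fgf7, averaged 1.45 ± 0.69 RPKM in TKO oocytes and 0.383 ± 0.248 RPKM in WT oocytes (SD, n = 3 each; limma adjusted p = 0.0129). Fgf13 measured 0.02, 0.37 and 0.00 RPKM in TKO oocytes and 1.19, 0.39 and 0.64 RPKM in DKO oocytes, against 0.13, 0.02 and 0.02 RPKM in WT oocytes, below the filter. Only DKO stood apart from WT, and the fit without the filter called it there (log2 change 0.70 ± 0.17, limma adjusted p = 0.0338) and between TKO and DKO (-0.61 ± 0.17, limma adjusted p = 0.0361).

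The genes that PRC1-CD oocytes gained were thus in part on and in part off in the knockouts. Bmp7, Fgf16 and Fgf18 were higher than their own wild type in PRC1-CD and in TKO oocytes. Bmp2, Fgf20 and Wnt5a measured at most 0.09, 0.07 and 0.26 RPKM in any TKO or DKO library. Fgf9 was called in TKO and DKO oocytes, and averaged 5.62 ± 1.36 RPKM in PRC1-CD and 6.63 ± 0.17 RPKM in PRC1-WT oocytes (SD, n = 2 each). The tables were normalised separately, so these differences between mutants were not tested. Of 7 tested granulosa and cumulus markers, 3 were higher and 1 lower than WT in TKO (Fshr, Nr5a2 and Ptgs2; Cyp19a1) and in DKO oocytes (Cyp11a1, Inha and Nr5a2; Cyp19a1). These markers summed to 35.2 to 40.6 RPKM in TKO, 29.1 to 34.0 RPKM in DKO and 31.4 to 35.0 RPKM in WT oocytes, with Fshr at 4.86 to 7.18 RPKM in TKO and at most 0.61 RPKM in the other 6 libraries and Foxl2 at most 0.02 RPKM. Of 8 tested markers of morulae, 5 were higher and 1 (Gata3) lower than WT in TKO and in DKO oocytes, and the 14 listed summed to 1323 to 1915 RPKM in TKO, 2655 to 2953 RPKM in DKO and 1217 to 1621 RPKM in WT oocytes. In the PRC1-CD set 4 of 9 were higher and 1 lower, with sums of 1768 to 1817 RPKM in PRC1-CD and 945.4 to 1626 RPKM in PRC1-WT oocytes. Over all genes tested, 31.2% were higher and 20.1% lower in TKO, and 17.5% and 11.3% in DKO oocytes. For PRC1-CD oocytes these shares were 17.3% and 5.61%. The part of these markers' cells or programmes in the ligand levels was not tested.

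**Figure D3:**
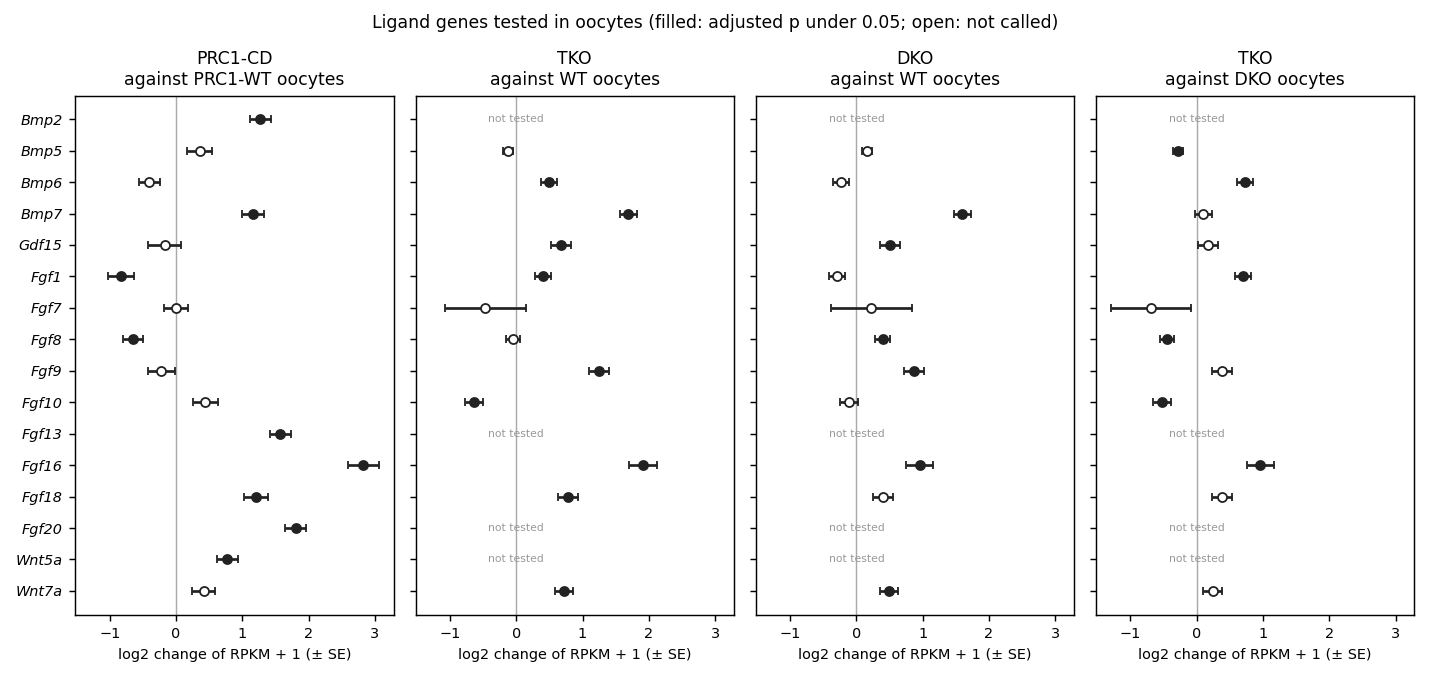
Log2 change of RPKM + 1 with its SE for the 16 ligand genes tested in at least 1 oocyte comparison, as mutant over wild type and, at the right, TKO over DKO; filled points were called at an adjusted p under 0.05. Fgf16 is filled in all 4 panels, and Fgf8 and Fgf1 change side between panels.

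Receptors, inhibitors and targets of the same pathways were described from general lists. Over all genes tested, 17.3% were higher and 5.61% lower in PRC1-CD oocytes, and 31.2% and 20.1% in TKO oocytes. The shares were 17.5% and 11.3% in DKO against WT, and 26.8% and 21.8% in TKO against DKO oocytes. Several counts in these short lists lie near those shares. Among 8 tested BMP SMADs and targets, 3 were higher in PRC1-CD, 6 were higher and 1 lower in TKO and 5 were higher in DKO oocytes, with 4 higher and 1 lower in TKO against DKO. The Id genes, direct targets of BMP SMADs, led this list. Id3 averaged 45.5 ± 5.6 RPKM in PRC1-CD and 5.81 ± 1.6 RPKM in PRC1-WT oocytes (log2 change 2.79 ± 0.21, limma adjusted p = 0.000282), and Id1 10.3 ± 0.77 and 0.69 ± 0.44 RPKM (2.77 ± 0.22, limma adjusted p = 0.000373). Id2 averaged 25.1 ± 3.8 RPKM in TKO and 12.3 ± 1.7 RPKM in DKO oocytes, against 3.81 ± 0.14 RPKM in WT oocytes (log2 change 2.43 ± 0.12, limma adjusted p = 5.57e-07, in TKO; 1.46 ± 0.12, limma adjusted p = 2.94e-05, in DKO). The type I BMP receptor Acvr1 was higher in every mutant, by 1.40 ± 0.20 in PRC1-CD, 1.38 ± 0.13 in TKO and 1.24 ± 0.13 in DKO oocytes on the log2 scale (limma adjusted p at most 0.00312), and it was the only call among 7 tested BMP receptors in PRC1-CD. Of 4 tested BMP antagonists only Chrdl1, a chordin-like protein, was called in PRC1-CD, at 12.4 ± 2.2 RPKM against 0.77 ± 0.21 RPKM in PRC1-WT oocytes (log2 change 2.91 ± 0.20, limma adjusted p = 0.000206), and of 3 tested in the knockouts, Dand5, a NODAL antagonist, was lower (-0.84 ± 0.07, limma adjusted p = 1.3e-05) and Fstl3, a follistatin-like protein, higher in TKO (0.35 ± 0.12, limma adjusted p = 0.035), and Twsg1 higher in DKO oocytes (0.55 ± 0.14, limma adjusted p = 0.0141). Of the 7 receptors, 3 were higher and 1 lower in TKO and 4 higher and 1 lower in DKO oocytes, the lower being Bmpr1b in both (-0.42 ± 0.07, limma adjusted p = 0.000825; -0.39 ± 0.07, limma adjusted p = 0.00263).

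On the WNT side, 2 of 8 tested receptors were higher in PRC1-CD, 3 higher and 1 lower in TKO and 2 higher and 1 lower in DKO oocytes. Lgr4, an R-spondin receptor, and the Frizzled gene Fzd7 were among them each time, with log2 changes of 1.21, 1.14 and 0.86 for Lgr4 and 0.79, 0.80 and 0.83 for Fzd7. Wls, the carrier that WNT proteins need for secretion, was higher in PRC1-CD oocytes (1.15 ± 0.18, limma adjusted p = 0.00392). It was the only tested gene of 2 on the secretion list there. In the knockout set 1 gene of that list was tested and not called, at log2 changes of -0.30 in TKO and -0.69 in DKO against WT oocytes. Of the secreted inhibitors, Wif1 and Dkk3 were higher (1.80 ± 0.18 and 1.18 ± 0.16) and Dkk1 lower (-1.36 ± 0.17) in PRC1-CD oocytes. Of 14 intracellular genes, 2 were higher in PRC1-CD, 7 higher in TKO, and 4 higher and 1 lower in DKO oocytes. Axin2, a feedback target of beta-catenin, averaged 34.8 ± 5.2 RPKM in TKO and 17.0 ± 1.5 RPKM in DKO oocytes, against 10.9 ± 1.3 RPKM in WT oocytes (log2 change 1.59 ± 0.13, limma adjusted p = 9.11e-06, in TKO; 0.60 ± 0.13, limma adjusted p = 0.00585, in DKO). The transcription factor gene Lef1 differed most between TKO and DKO on this list (1.16 ± 0.08, limma adjusted p = 5.28e-06).

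On the FGF side, 2 of 4 tested receptors and co-receptors were higher in PRC1-CD oocytes (Kl and Klb, co-receptors of endocrine FGFs), 2 of 3 in TKO (Fgfr1 and Fgfr2) and 1 of 3 in DKO oocytes (Klb). Of the intracellular and feedback genes, 2 of 9 were higher and 1 lower in PRC1-CD, and 4 of 10 were higher in TKO and in DKO oocytes. Dusp6, the ERK phosphatase that FGF signalling induces, averaged 4.13 ± 0.071 RPKM in PRC1-CD and 0.01 ± 0.014 RPKM in PRC1-WT oocytes (log2 change 2.34 ± 0.16, limma adjusted p = 0.000204). It averaged 0.65 ± 0.39 RPKM in TKO and 2.38 ± 0.51 RPKM in DKO oocytes, against 0.103 ± 0.091 RPKM in WT oocytes, and was lower in TKO than in DKO (-1.05 ± 0.18, limma adjusted p = 0.00101). Whether any of these genes answered to the ligands was not tested.

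In morulae, normalised separately from the oocytes and given as TPM, a largely different set of ligands was on. Fgf18 and Gdf15 reached a mean of 1 both there and in PRC1-WT oocytes. In WT morulae 9 of the 60 had a mean of at least 1 TPM, led by Gdf3 at 39.2 ± 10.5, Wnt7b at 13.7 ± 5.12 and Wnt3a at 8.81 ± 3.15 TPM (SD, n = 10). GDF3 is a ligand of pluripotent cells, WNT3A drives mesoderm formation and WNT7B acts in the placenta and lung. Fgf4, the ligand by which the inner cell mass directs primitive endoderm, Gdf15, Wnt6, Fgf18, Fgf3 and Wnt10b followed at 1.06 to 2.98 TPM. The genes of this set that stood highest in wild-type oocytes were near 0. Bmp5 and Bmp6 averaged 0.05 and 0.225 TPM, and Fgf8 was listed at 0 in all WT libraries. Bmp7, on in mutant oocytes, averaged 0.369 ± 0.426 TPM in matTKO, 0.373 ± 0.519 TPM in matDKO and 0.295 ± 0.472 TPM in WT morulae, with overlapping ranges.

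No ligand gene was called between the morula groups. Of the 11 tested, limma called 0 in matTKO against WT, in matDKO against WT and in matTKO against matDKO, and 0 had an unadjusted p under 0.05 in any of them. Of all 13056 genes, 0.567%, 1.74% and 0.0689% were called in these comparisons, and 12.9%, 17.3% and 6.64% had an unadjusted p under 0.05. The median log2 change of the 11 was 0.20, 0.23 and -0.03, against -0.06, -0.09 and 0.03 over all genes. The ranges of 10 libraries overlapped between groups for all 54 ligand genes above 0 in some library, in all 3 comparisons, as they did for nearly all genes, of which 0.0328%, 0.0728% and 0.0109% did not overlap. In addition, 0 genes of any receptor, antagonist or target list were called. In whole embryos, fewer cells of a type and less RNA per cell cannot be told apart.

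Wnt7b came closest. Its lowest, median and highest library measured 1.18, 9.11 and 16 TPM in matTKO morulae and 0.02, 10.8 and 21.6 TPM in matDKO morulae, against 5.54, 13.3 and 24.4 TPM in WT morulae. The maternal mutants reached lower but overlapped with WT (log2 change of TPM + 1 -1.0 ± 0.50, limma adjusted p = 0.398, in matTKO; -0.85 ± 0.50, limma adjusted p = 0.387, in matDKO). Wnt3a ranged over 0.83, 7.09 and 9.96 TPM in matTKO and 0.17, 5.86 and 19.8 TPM in matDKO morulae, against 3.67, 8.53 and 14.3 TPM in WT morulae (-0.69 ± 0.44 and -0.70 ± 0.44 on the log2 scale, limma adjusted p = 0.528 and 0.419). Gdf3 measured 22.1, 47.4 and 89.3 TPM in matTKO and 11.9, 45.5 and 77.8 TPM in matDKO morulae, against 24.0, 41.0 and 52.8 TPM in WT morulae, and Fgf4 0, 5 and 10.6 TPM in matTKO and 0.96, 4.39 and 6.03 TPM in matDKO morulae, against 0.66, 1.67 and 8.19 TPM in WT morulae. For both genes the mutant medians were higher and the ranges overlapped (limma adjusted p at least 0.6 in each comparison with WT). Bmp4, a ligand that induces germ cells, ranged over 0, 0.3 and 16.71 TPM in matTKO and 0, 0.19 and 2.2 TPM in matDKO morulae, against 0, 0.035 and 1.97 TPM in WT morulae, so most libraries had next to none. Gdf15, Wnt6, Wnt10b, Fgf3, Fgf18 and Bmp8a averaged between 0.824 and 4.38 TPM in the maternal mutants and between 0.765 and 2.98 TPM in WT morulae. Without the 5 libraries that stood apart, limma again called 0 of the ligand genes tested in each comparison. The fit without the filter called 0 of 54 in each comparison. There Bmp2 in matTKO against WT had the lowest adjusted p (log2 change 0.50 ± 0.19, limma adjusted p = 0.406). Bmp2 reached 2.19 TPM in matTKO and 1.44 TPM in matDKO libraries, against at most 0.20 TPM in WT libraries, with overlapping ranges.

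**Figure D4:**
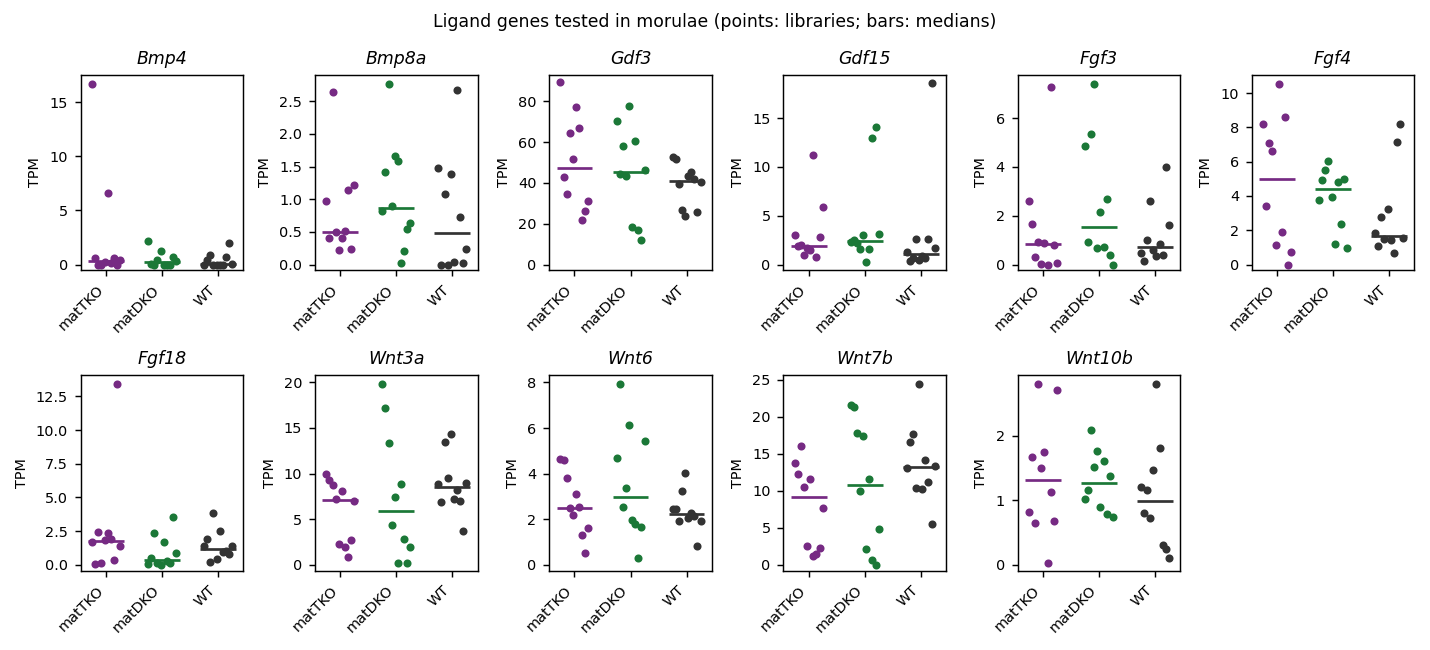
Level in TPM of the 11 ligand genes tested in morulae, with a point for each of 10 libraries a group and a bar at the median, each panel on its own linear axis. The groups overlap for every gene; Wnt3a and Wnt7b reach below the WT range in several matTKO and matDKO libraries, and single libraries stand high for Bmp4, Fgf3, Fgf18 and Gdf15.

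Wnt3a and Wnt7b varied together between morulae of 1 group. Of 165 relations computed between pairs of the 11 genes within groups, only this pair passed adjustment by both Pearson's r and Spearman's rho. Gdf3 with Wnt7b in matDKO and Gdf15 with Wnt7b in WT morulae passed by r alone. The matTKO libraries fell into separate sets, 4 (replicates 5, 7, 8 and 9) at 0.83 to 2.73 TPM of Wnt3a and 1.18 to 2.58 TPM of Wnt7b, and 6 at 7 to 9.96 TPM of Wnt3a and 7.72 to 16 TPM of Wnt7b, so r is given only within the 6 (Pearson's r = 0.769, exact permutation p = 0.0653; Spearman's rho = 0.83, exact permutation p = 0.0583). In matDKO morulae r was 0.884 (permutation p = 0.00074, adjusted 0.04) and rho 0.952 (permutation p = 0.00016, adjusted 0.019) over 10 libraries on log2(TPM + 1), 0.809 without the 2 libraries farthest from the median of Wnt3a, and 0.979 (exact permutation p = 0.000198) over the 7 that did not stand apart. In WT morulae r was 0.852 (permutation p = 0.00447, adjusted 0.132) and rho 0.564 (permutation p = 0.0973, adjusted 0.696). There r was 0.408 without the 2 farthest libraries. Over the 9 without replicate 9, r was 0.686 (permutation p = 0.0424, not adjusted) and rho 0.4 (permutation p = 0.29). The strength of the WT relation thus depended on which libraries were kept. The low libraries include 4 of the 5 that stood apart (matTKO 8 and 9, matDKO 8 and 9), and the part of library quality in the relation was not tested.

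**Figure D5:**
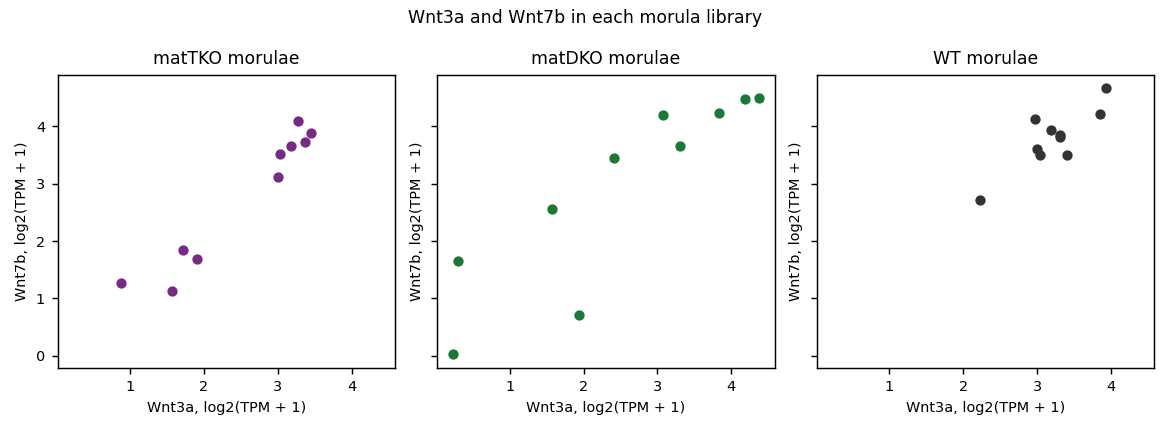
Wnt7b against Wnt3a in each morula library, both as log2(TPM + 1), in 3 panels for matTKO, matDKO and WT, 10 points each. The matTKO points form a low set of 4 and a high set of 6, the matDKO points run from low to high, and the WT points lie together except for replicate 9.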

How the data were processed

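Polyadenylated RNA had been copied with SMART-Seq v4 and made into libraries with Nextera XT, per the labels' protocols, which does not mark the strand. The tools named in the submitters' processing notes are STAR 2.7.3 and 2.7.6, featureCounts 1.6.0, RSEM 1.3.1 and Trim Galore 0.6.4, with the builds GRCm38 and mm10. The authors deposited RPKM values for both oocyte tables, which keep no count of reads. The deposited morula table is titled RPKM, but its libraries each sum to between 999421 and 999922, so its deposited values were taken as TPM, although the tests had been planned for RPKM. Depth is therefore unknown, and no counting interval was computed. In both oocyte tables, 27 entries whose names had turned into dates were dropped.

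Values were analysed as log2(value + 1) in R 4.3.3 with limma 3.58.1 (lmFit, eBayes with trend), within each table, over genes whose mean reached 1 in any group, with Benjamini-Hochberg adjustment over all of them and a call at 0.05. This scale understates the change of low genes. The fit was tested on simulated data with 200 changed genes. Every ligand gene called in any comparison with the filter was named with its values, those called only without it were named with their log2 change, the others at a group mean of at least 1 with their levels, and up to 3 called genes a comparison and pathway list. Alternatives were another pseudocount, filters, scalings, a replicate block, pairwise fits and leaving out libraries. Promoters and overlaps are from RefSeq and GENCODE on GRCm38. The genes and lists were chosen with earlier results of these data known.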

Additional observations from a re-analysis of the deposited data

Results flagged for a closer look

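Dixon's criterion was applied to TPM values without logs. Chance meets its cut-off in about 1 set of 20 only where values are normally distributed. Several genes, such as Bmp4, had skewed TPM values, so the count of flagged sets cannot be compared with that rate. In 7 of 33 sets of 10 morula libraries, 1 library lay far from the rest by this criterion. In matTKO morulae these were Bmp4 at 16.71 TPM in replicate 1, Bmp8a at 2.64 TPM in replicate 3, Fgf3 at 7.26 TPM in replicate 8, Fgf18 at 13.43 TPM in replicate 9 and Gdf15 at 11.2 TPM in replicate 7. In WT morulae they were Bmp4 at 1.97 TPM and Gdf15 at 18.56 TPM, both in replicate 9, which was also the lowest WT library for Wnt3a and Wnt7b. Replicates 8 and 9 of matTKO also stood apart over all genes.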

How the results depend on the processing

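Of 77 recomputed counts of called ligand genes, 74 stayed within 1.5 times the reported count. The others were 5 in PRC1-CD without PRC1-WT replicate 2, 3 in DKO against WT without WT replicate 1, and 10 in TKO against DKO with no filter on low values. Leaving out each library in turn gave 5 to 8 calls in PRC1-CD, 8 to 10 in TKO against WT, 3 to 5 in DKO against WT and 6 to 9 in TKO against DKO. Of the recomputed log2 changes of single genes, 883 kept direction and call, 32 lost and 10 gained the call, 12 that were never called changed sign, and 0 called ones reversed. The PRC1-CD median over all genes moved to -0.08 with quantile normalisation and -0.07 with median-ratio scaling, from 0.04. Same-numbered oocyte libraries did not deviate together (correlations of -0.048 to 0.109 in the knockout set and 0.088 in the PRC1-CD set). In morulae 13 of 30 same-numbered pairs and 45 of 270 others passed 0.1, with medians of 0.071 and 0.0004, so some same-numbered morula libraries deviated together. No label says what a number shares, so the numbers were not taken as pairs in the main fit, and a shared batch was not tested. With the replicate block the counts of ligand genes were the same, 9, 9, 6 and 6 in oocytes and 0 in morulae, and 3264, 6331, 3364 and 5976 genes were called over all in oocytes and 183, 607 and 16 in morulae, where 74, 227 and 9 were called without it. Unknown depth and groups of 2 or 3 libraries limit what can be said of genes near 0.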

Other observations

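Fgf8, the highest of the ligand genes described here in wild-type oocytes, was listed at 0 in all matTKO and WT morula libraries. By contrast, 4 matDKO libraries (replicates 5, 6, 7 and 9) had 0.07, 2.02, 5.09 and 0.17 TPM. Of these, replicates 7 and 9 are among the libraries that stood apart over all genes. Fgf9, also an oocyte ligand, reached 1.97 TPM in matDKO replicate 7 and 0.51 TPM in replicate 8, both of which stood apart, and at most 0.02 TPM in matTKO and 0.15 TPM in WT morulae. Neither gene reached a group mean of 1 TPM, and in the fit without that filter neither was called in matDKO against WT morulae (log2 change 0.45 ± 0.23, limma adjusted p = 0.502, for Fgf8; 0.18 ± 0.13, limma adjusted p = 0.682, for Fgf9). Fgf3 and Fgf4, both on in morulae, lie 18038 bases apart on chromosome 7.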
